A study of Mus musculus with 3 samples.

Results

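Of the 1108 rows in a small RNA table of mouse muscle progenitors, 252 bear names of miRNAs from other species, such as human (hsa), cattle (bta), Chinese hamster (cgr), bats (pal, efu) or opossum (mdo). They were taken as every row whose name starts with neither mmu-, the prefix of mouse miRNAs, nor PC-, a prefix that the labels do not explain. The names used 21 species prefixes, led by hsa with 60 rows, bta with 41, pal with 34, cgr with 19 and mdo with 18. Since the cells were murine, the names say which database entry a sequence was assigned to and not where it came from. The other rows were 728 with a mouse name and 128 with a PC name.

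The cells were labelled as muscle-resident fibro/adipogenic progenitors (FAPs), stromal cells that can turn into fibroblasts or fat cells in injured muscle, labelled with the genotype WT (wild type) and not cultured. The labels give neither the number of animals behind a library nor how the cells were sorted. One library each was made from muscle 5 days after cardiotoxin (a snake toxin that destroys muscle fibres), from muscle 3 weeks after sciatic denervation and from normal muscle without injury. The libraries held 3636249 (cardiotoxin), 7193088 (denervated) and 4471365 (normal) counts. Values are counts per 1000000 counts of a library (CPM), differences are ratios between 2 libraries, and no test was possible because each condition had a single library. Ranges in parentheses are 95% intervals of a ratio or share that cover counting error only. Against a count of 0 a ratio is given as a bound computed with 3 counts, which are 0.825 (cardiotoxin), 0.417 (denervated) and 0.671 (normal) CPM in a library.

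A transfer RNA (tRNA) ends in CCA, bases that an enzyme adds to the 3′ end of every mature tRNA and to which the amino acid is joined. Short pieces cut from the 3′ end of tRNAs therefore end in CCA, and some miRNA database entries, such as miR-1260 and miR-4454 in human, are known to overlap tRNA sequences. A miRNA of one species can also differ from its mouse counterpart by a base or by a few bases at its 3′ end, so that a variant of a mouse miRNA can carry a foreign name. The bases that pair with targets, the seed, are bases 2 to 8 of a miRNA. Most row names end in L, R or ss with numbers, which in the pairs compared here stood for bases gained or lost at the 5′ or 3′ end and for substituted bases. cgr-miR-1260_1ss9GA, for example, differed from cgr-miR-1260 by G9A, with positions counted from 1 at the 5′ end.

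The CCA-ended rows that hold most of the counts are shown first, with CCA in capitals, because they share their length of 18 bases as well as their tail. A mouse-named row of the same form is added for comparison.
bta-miR-2478_L-2: atcccacttctgacaCCA
cgr-miR-1260: atcccaccgctgccaCCA
cgr-miR-1260_1ss9GA: atcccaccactgccaCCA
pal-miR-9995-3p: atctcggtggaacctCCA
hsa-miR-7977_1ss6AG: ttcccggccaacgcaCCA
pal-miR-9993b-3p: atctcgctggggcctCCA
pal-miR-9226-5p_L-4: gtccctgttcgggcgCCA
hsa-miR-4454_L-2: atccgagtcacggcaCCA
mmu-miR-3968_L-3_1ss14AT: atcccactcctgacaCCA
cgr-miR-1260 differed from bta-miR-2478_L-2 by T8C, T9G and A13C, and the mouse-named row differed from bta-miR-2478_L-2 by T9C alone.

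Rows of another kind hold a CCA-ended sequence and continue by 1 to 4 bases past CCA, mostly A or T.
cgr-miR-1260_R+1_1: atcccaccgctgccaCCAa
cgr-miR-1260_R+1_2: atcccaccgctgccaCCAt
cgr-miR-1260_R+2: atcccaccgctgccaCCAaa
efu-mir-9226-p5_1ss17GA_1: tccctgttcgggcgCCAa
efu-mir-9226-p5_1ss17GA_2: tccctgttcgggcgCCAaa
pal-mir-9226-p3_1ss18CA: tccctgttcgggcgCCAat

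Rows that resemble miRNAs are shown with the seed in capitals, chosen because each is compared with a mouse miRNA in the results. Mature mouse sequences from RefSeq (GRCm38.p6) stand beside them, in U where the table has T.
bta-miR-150: tCTCCCAAcccttgtaccagtgt
rno-miR-1249: aCGCCCTTcccccccttcttca
mmu-miR-1249-3p: aCGCCCUUcccccccuucuuca
mdo-miR-181a-5p_R+3_1: aACATTCAacgctgtcggtgagttat
mdo-miR-181a-5p_R+3_2: aACATTCAacgctgtcggtgagtttt
mmu-miR-181a-5p: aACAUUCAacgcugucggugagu
mdo-miR-26-5p_R+3: tTCAAGTAatccaggataggctag
mmu-miR-26a-5p: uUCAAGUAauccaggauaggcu
mdo-miR-34b-5p: aGGCAGTGtagttagctgattgt
sha-miR-125a_R+2_1: tCCCTGAGaccctaacttgtgaaa
mmu-miR-125b-5p: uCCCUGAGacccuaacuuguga
rno-miR-1249 equals mouse miR-1249-3p base for base, and the sequence of sha-miR-125a_R+2_1 begins with the whole of mouse miR-125b-5p despite its name.

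All 252 rows together held 12118 CPM in the cardiotoxin library, 6970.4 CPM in the denervated library and 6891 CPM in the normal library. That was 1.21%, 0.697% and 0.689% of the counts in the order cardiotoxin, denervated and normal. The sum was 1.76-fold higher (1.73 to 1.78) in cardiotoxin than in normal and 1.74-fold higher (1.72 to 1.76) than in denervated, while the ratio of denervated over normal was 1.01 (0.997 to 1.03). The 6 rows with the highest mean held 63.8% (cardiotoxin), 61.6% (denervated) and 64.5% (normal) of the counts of the 252. Counts above 0 were found for 170 rows in cardiotoxin, 208 in denervated and 184 in normal, and for 130 in all 3 libraries. Rows above 0 in 1 library alone numbered 25 (cardiotoxin), 34 (denervated) and 13 (normal) and stayed at or below 11.1 CPM.

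The mean over the 3 libraries reached 10 CPM in 63 of the 252 rows, and 189 lay below it. A row with a high value in 1 library could pass through that library alone, here and in all counts of kept rows below. Without the filter, the median log2 ratio of cardiotoxin over normal was 0 for the 252 rows and for all rows. In cardiotoxin, 30 of the 63 were at least 2-fold higher than in normal and 18 at least 2-fold lower, where 32.0% of all 450 rows that passed were higher and 39.8% lower. The median log2 ratio of the 63 was 0.79, against -0.44 for the 380 mouse-named rows that passed and -0.21 for all 450. Of the PC rows, 7 passed, of which 6 were higher in cardiotoxin than in normal and 0 lower, with a median of 1.55. In denervated, 3 of the 63 were higher than in normal and 1 lower, where 6.22% of all rows were higher and 6.22% lower. The median of the 63 was -0.08 in that comparison, as for all rows. Between the injuries, 29 of the 63 were higher in cardiotoxin than in denervated and 18 lower, where 33.3% of all rows were higher and 38.9% lower. The median of the 63 was 0.89, against -0.27 for the mouse-named rows. The first and the third comparison share the cardiotoxin library.

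The libraries differed in miRNAs known from several cell types, and these values stand here once for all results below. The 8 leukocyte miRNAs summed to 24009.5 CPM in the cardiotoxin library, 762 CPM in the denervated library and 422 CPM in the normal library, and all 8 were at least 2-fold higher in cardiotoxin than in normal, with 2 at 0 in denervated and 2 in normal. Both endothelial miRNAs (the arms of miR-126a) were at least 2-fold higher in cardiotoxin and lower in denervated than in normal, at 19251 CPM in the cardiotoxin library, 1659 CPM in the denervated library and 5401 CPM in the normal library in sum. The 11 mesenchymal miRNAs found, which stromal cells are known to carry, summed to 25566 CPM (cardiotoxin), 309161 CPM (denervated) and 331301 CPM (normal). Of the 11, 10 were at least 2-fold lower in cardiotoxin than in normal, with 1 at 0 in cardiotoxin. Among the 10, miR-100-5p had the values of miR-99a-5p in every library, 1441 CPM (cardiotoxin), 54157 CPM (denervated) and 70613 CPM (normal). Such equal values do not count as separate measurements, so the sum and the 10 each hold a repeat. The remaining one, miR-10a-5p, went the other way, at 6712 CPM (cardiotoxin), 357 CPM (denervated) and 906 CPM (normal). The 5 miRNAs of muscle fibres were each 2-fold or more above normal in denervated, at 928 CPM in the cardiotoxin library, 3159 CPM in the denervated library and 903 CPM in the normal library in sum. In cardiotoxin, 2 of the 5 were at least 2-fold higher than in normal and 0 lower. Of these, miR-206-3p was at 282 CPM in cardiotoxin and 28.9 CPM in normal. The 6 epithelial miRNAs summed to 290.1 CPM (cardiotoxin), 469.9 CPM (denervated) and 904 CPM (normal), with 2 higher and 2 lower in cardiotoxin and 4 lower in denervated than in normal. The 3 erythroid ones summed to 94.1 CPM (cardiotoxin), 98.3 CPM (denervated) and 68.8 CPM (normal). The part of all these cell types in the results was not tested, and in a bulk library fewer cells of a type and less RNA per cell cannot be told apart. The mouse miRNA miR-21a-5p held 53.9% of the counts in cardiotoxin, 10.4% in denervated and 2.14% in normal, so that the CPM of every other row depends on it.

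By length and tail, the short CCA-ended rows held most of the counts. Of the 252 rows, 43 ended in CCA (17.1%), against 9 of 728 mouse-named rows (1.24%) and 3 of 128 PC rows (2.34%). The CCA-ended rows measured 18 to 22 bases, 33 of them at most 19. These 33 summed to 7144 CPM in the cardiotoxin library, 4269.6 CPM in the denervated library and 4316 CPM in the normal library. The 10 CCA-ended rows of 20 to 23 bases summed to 90.3 CPM in the cardiotoxin library, 75.4 CPM in the denervated library and 92.7 CPM in the normal library. No CCA-ended row had 24 bases or more.

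The short and the long rows without the tail had larger ratios than the short CCA-ended rows, whose sum was 1.66-fold higher (1.62 to 1.69) in cardiotoxin than in normal. The 89 rows of at most 19 bases without CCA summed to 1623 CPM in the cardiotoxin library, 609 CPM in the denervated library and 645 CPM in the normal library, and their sum was 2.52-fold higher (2.41 to 2.63) in cardiotoxin than in normal. The 92 rows of 20 to 23 bases without CCA, the usual length of a miRNA, summed to 2611 CPM in the cardiotoxin library, 1487 CPM in the denervated library and 1566 CPM in the normal library, 1.67-fold higher (1.62 to 1.72) in cardiotoxin than in normal, like the short CCA-ended rows. The 28 rows of at least 24 bases summed to 650.0 CPM in the cardiotoxin library, 529 CPM in the denervated library and 272 CPM in the normal library. In this longest class both injuries were above normal, 2.39-fold higher (2.23 to 2.56) for cardiotoxin and 1.95-fold higher (1.82 to 2.08) for denervated. Most of their counts lay in mdo-miR-26-5p_R+3 and in the miR-181 rows described further on, of which several have equal counts. For the short CCA-ended class the ratio of denervated over normal was 0.989 (0.972 to 1.01). Over all 252 rows the median length was 20 bases, against 22 for mouse-named rows and 20 for PC rows.

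By sequence, the rows fell into 43 that end in CCA, 26 that continue past it, 83 that share at least 16 bases in a row with a mouse miRNA, 40 that lie whole in a transcript of another gene of the GENCODE M21 annotation (GRCm38) and 60 with none of these. Of these classes 10, 9, 22, 5 and 17 rows passed the filter, in the same order. The classes were assigned in that order, so 4 CCA-ended rows and 3 that continue past CCA also lie whole in an annotated transcript. Transcripts came from GENCODE alone, and no separate set of nuclear tRNA genes or of the nuclear ribosomal RNA repeat was used here.

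**Figure D1:**
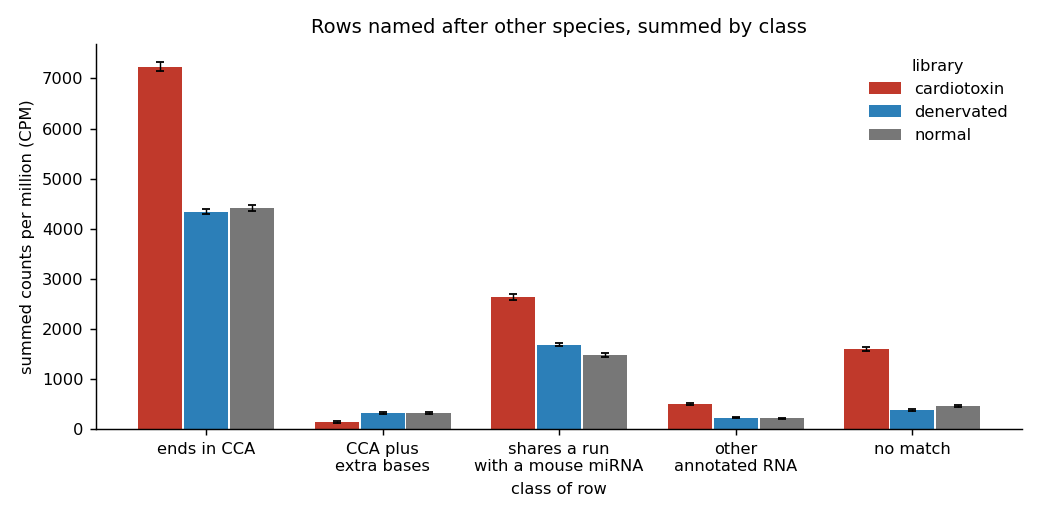
Summed CPM of the rows named after other species in 5 sequence classes (bars, with exact 95% counting intervals as error bars) in the cardiotoxin, denervated and normal libraries. CCA-ended rows hold 7234 CPM in cardiotoxin, 4345 in denervated and 4408 in normal, and the class that continues past CCA is the one that is lower in cardiotoxin.

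CCA-ended rows were higher in cardiotoxin in sum, but the single rows ranged from lower to several-fold higher. The 43 rows summed to 7234 CPM in the cardiotoxin library, 4345 CPM in the denervated library and 4408 CPM in the normal library. Their sum was 1.64-fold higher (1.61 to 1.67) in cardiotoxin than in normal. Of the 10 that passed the filter, 3 were at least 2-fold higher in cardiotoxin than in normal, 1 was lower and 6 were within 2-fold, with a median log2 ratio of 0.65. A share of 3 in 10 is near the 32.0% of all kept rows. With edgeR's TMM factors, DESeq2's size factors or the deposited normalized columns, 1 was higher and 1 lower, and over totals that omit miR-21a-5p 14 of 15 kept rows were higher and 0 lower, where 51.6% of all kept rows were higher. None of the 10 differed 2-fold between denervated and normal, where 6.22% of all kept rows were higher and 6.22% lower.

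The most abundant was bta-miR-2478_L-2, at 2419.5 CPM in the cardiotoxin library, 1539 CPM in the denervated library and 1401 CPM in the normal library, which was 1.73-fold higher (1.67 to 1.78) in cardiotoxin than in normal. It shares a run of 16 bases with mouse miR-3963, an entry that RefSeq places on chromosome 3. cgr-miR-1260 followed at 1758 CPM in the cardiotoxin library, 918 CPM in the denervated library and 849.5 CPM in the normal library, 2.07-fold higher (1.99 to 2.15) in cardiotoxin than in normal. The row that differs from it by G9A stood at 238 CPM in the cardiotoxin library, 25.1 CPM in the denervated library and 28.4 CPM in the normal library. It was 8.37-fold higher (6.94 to 10.2) in cardiotoxin than in normal, so that rows 1 base apart had intervals that did not overlap. Of the counts of both rows, the G9A row took 11.9% in cardiotoxin (11.2 to 12.7), 2.66% in denervated (2.30 to 3.08) and 3.24% in normal (2.70 to 3.84). These shares do not depend on how libraries are scaled.

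hsa-miR-7977_1ss6AG was at 776 CPM in the cardiotoxin library, 260.4 CPM in the denervated library and 372 CPM in the normal library. It was 2.08-fold higher (1.96 to 2.21) in cardiotoxin than in normal and 1.43-fold lower (1.34 to 1.53) in denervated than in normal. Its sequence, CCA included, also lies in the long noncoding RNAs Gm12505 and Gm29371. pal-miR-9995-3p, 1 of the 6 highest rows, was at 972 CPM in the cardiotoxin library, 807 CPM in the denervated library and 873 CPM in the normal library, with a ratio of cardiotoxin over normal of 1.11 (1.06 to 1.17). pal-miR-9993b-3p was at 594 CPM in the cardiotoxin library, 434 CPM in the denervated library and 485 CPM in the normal library, a ratio of 1.22 (1.15 to 1.30). With other scalings the log2 ratio of pal-miR-9995-3p lay on either side of 0, at -0.13 in the deposited normalized columns and 1.24 over totals that omit miR-21a-5p. cgr-miR-1260 and hsa-miR-7977_1ss6AG were under 2-fold with edgeR's TMM factors, at log2 ratios of 0.83 and 0.84, and likewise with DESeq2's size factors and in the deposited normalized columns.

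pal-miR-9226-5p_L-4 was at 64.9 CPM (cardiotoxin), 25.6 CPM (denervated) and 32.4 CPM (normal), 2.0-fold higher (1.62 to 2.48) in cardiotoxin than in normal, and its sequence also lies in a transcript of Adarb2. bta-miR-4286_R+1, which lies in 6 annotated genes, was at 215 CPM (cardiotoxin), 153 CPM (denervated) and 150.51 CPM (normal). hsa-miR-4454_L-2 went the other way, at 22.8 CPM in the cardiotoxin library, 43.4 CPM in the denervated library and 65.6 CPM in the normal library, and was 2.88-fold lower (2.25 to 3.72) in cardiotoxin than in normal. It was the 1 CCA-ended row at least 2-fold lower among those that passed, and over totals that omit miR-21a-5p its log2 ratio was -0.43. bta-miR-2478_L+2, with 22 bases the longest that passed, was near level at 62.7 CPM (cardiotoxin), 57.1 CPM (denervated) and 65.3 CPM (normal). The mouse-named row of the same form, mmu-miR-3968_L-3_1ss14AT, was at 3199.7 CPM in the cardiotoxin library, 1236 CPM in the denervated library and 1265 CPM in the normal library, 2.53-fold higher (2.45 to 2.61) in cardiotoxin than in normal.

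The list of names known to overlap tRNAs held 11 names, of which 4 (miR-1260, miR-2478, miR-4454 and miR-7977) were found in 29 rows, 15 of them CCA-ended. Of the 9 that passed the filter, 3 were at least 2-fold higher in cardiotoxin than in normal, 3 were lower and 3 were within 2-fold, which is 33.3% in each direction, against 32.0% higher and 39.8% lower over all kept rows. In denervated against normal none of the 9 was 2-fold apart, with a median log2 ratio of -0.01, where 6.22% of all kept rows were higher and 6.22% lower. Against denervated, 2 of the 9 were higher in cardiotoxin and 2 lower, where 33.3% of all kept rows were higher and 38.9% lower. The 20 rows of the list below the filter included cgr-miR-1260_L+1_1ss10GA at 5.50 CPM (cardiotoxin), 0.973 CPM (denervated) and 1.34 CPM (normal), and hsa-mir-4454-p3 at 2.61 CPM (cardiotoxin), 9.73 CPM (denervated) and 7.83 CPM (normal). The other 18 rows lay between 0 and 7.02 CPM in every library. Of 9 names of other structural RNAs, 1 was found, hsa-miR-1248_R-6, which lies in the small nucleolar RNA Snora81 and stood at 3.03 CPM (cardiotoxin), 7.09 CPM (denervated) and 4.70 CPM (normal).

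**Figure D2:**
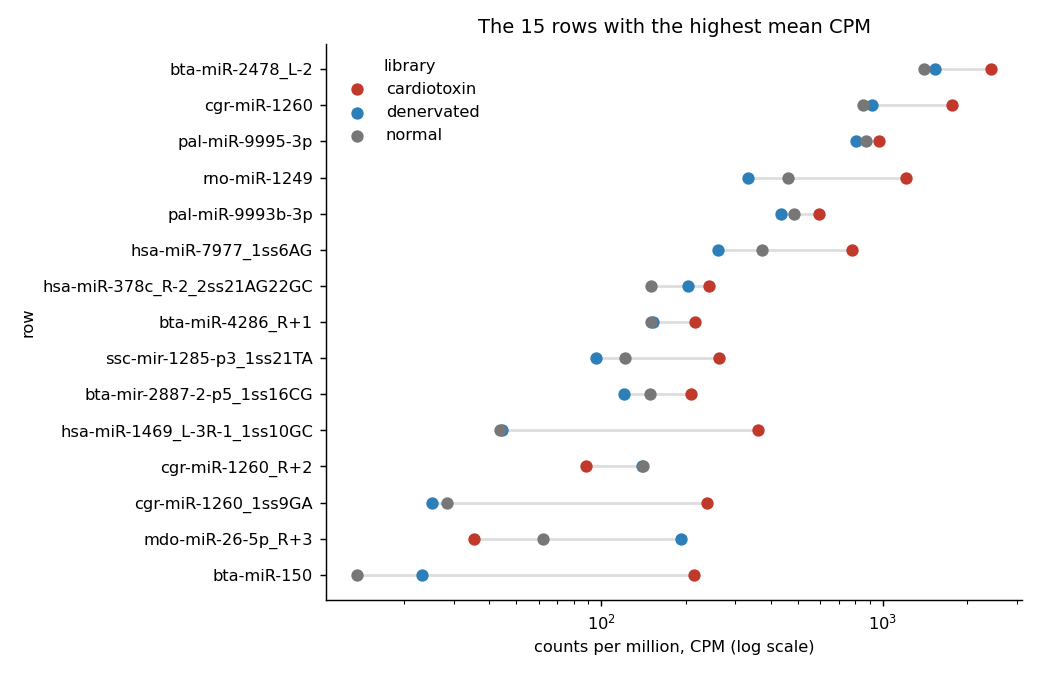
CPM (log axis) of the 15 rows with the highest mean, 1 point for each of the cardiotoxin, denervated and normal libraries. Denervated and normal points lie close together for most rows, and the cardiotoxin point is the highest for all but cgr-miR-1260_R+2 and mdo-miR-26-5p_R+3.

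Rows that continue past CCA were lower in cardiotoxin, where the rows that stop at CCA were higher in sum. The 26 rows summed to 146 CPM in the cardiotoxin library, 327 CPM in the denervated library and 329 CPM in the normal library, which was 2.26-fold lower (2.05 to 2.50) in cardiotoxin than in normal. Of the 9 that passed, 8 were at least 2-fold lower in cardiotoxin than in normal, where 39.8% of all kept rows were lower. The other 1 was within 2-fold, and the median log2 ratio of the 9 was -1.63. With rows of equal counts taken once, 3 of 4 were lower. Over totals that omit miR-21a-5p, 1 of the 9 was at least 2-fold lower, where 28.5% of all kept rows were lower. The median log2 ratio of the 9 was then -0.71 and the ratio of the sums was 0.938, close to level. None of the 9 was 2-fold apart between denervated and normal, where 6.22% of all kept rows were higher and 6.22% lower. The added bases were A alone in 12 of the 26 rows and A or T in 21.

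cgr-miR-1260_R+2, with AA past CCA, was the most abundant at 88.6 CPM in the cardiotoxin library, 139.9 CPM in the denervated library and 141 CPM in the normal library, 1.59-fold lower (1.39 to 1.82) in cardiotoxin than in normal. Over totals that omit miR-21a-5p, its direction turned, to a log2 ratio of 0.41. The rows with a single A or T past CCA had equal counts, 15.1 CPM in the cardiotoxin library, 37.3 CPM in the denervated library and 32.7 CPM in the normal library each. The lowest ratio belonged to pal-mir-9226-p3_1ss18CA, at 0.688 CPM in the cardiotoxin library, 13.7 CPM in the denervated library and 19.1 CPM in the normal library. With counts rounded to whole numbers it was 23.3-fold lower (7.71 to 115) in cardiotoxin than in normal. Its cardiotoxin value rests on 2.50 counts before rounding, so this ratio is not that of the CPM given here. The 5 efu-mir-9226 rows that passed had equal counts in each library, 3.99 CPM in the cardiotoxin library, 12.4 CPM in the denervated library and 14.4 CPM in the normal library. Equal counts in sister rows mean that the rows do not count as separate measurements.

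Within a library, the share of counts that ran past CCA does not depend on the library's total. Over all 69 rows that end in or continue past CCA it was 1.97% in the cardiotoxin library, 7.0% in the denervated library and 6.95% in the normal library. The 95% intervals were 1.81 to 2.15% (cardiotoxin), 6.73 to 7.28% (denervated), 6.61 to 7.30% (normal). With rows of equal counts taken once, it was 1.56% (cardiotoxin), 5.12% (denervated) and 5.08% (normal). No row of miR-9995 or miR-9993 ran past CCA. In no library did the share exceed 0.182% for miR-2478 or 0.952% for miR-7977. The share over all 69 rows therefore also depends on how the counts divide among the names. No row was shorter than 18 bases. The extended rows of miR-9226 start 1 base further 3′ than its shortest CCA-ended row. Their own CCA-ended form would fall below 18 bases and could not appear. The same holds for miR-4454, miR-7977 and some extended rows of miR-1260. These shares thus mix rows of unlike 5′ ends and do not give how often 1 RNA runs past CCA. For miR-1260 the share was 5.6% in the cardiotoxin library, 18.7% in the denervated library and 19% in the normal library. For miR-9226 it was 17.5% in the cardiotoxin library, 64.6% in the denervated library and 64.8% in the normal library, and with rows of equal counts taken once 5.32% (cardiotoxin), 43.2% (denervated) and 45.7% (normal). In both names the cardiotoxin interval lay below those of denervated and normal, which overlapped each other. For miR-4454 the share was 17.6% in the cardiotoxin library, 27.1% in the denervated library and 14.9% in the normal library, and the cardiotoxin interval overlapped both others. Those of denervated (23.2 to 31.6%) and normal (11.3 to 19.1%) did not overlap each other.

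**Figure D3:**
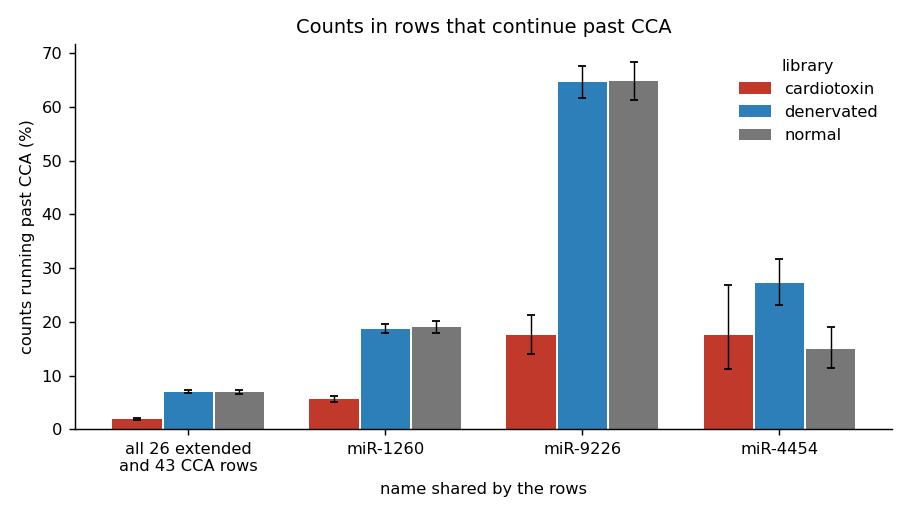
Percentage of counts in rows that continue past CCA, among rows that end in or continue past it, for all such rows and for 3 names, in the cardiotoxin, denervated and normal libraries (error bars are exact binomial 95% intervals). The cardiotoxin bar is the lowest over all rows, for miR-1260 and for miR-9226. For miR-4454 its interval overlaps both others, while those of denervated and normal do not overlap. Rows that differ at their 5′ end are counted together.

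The 83 rows that share a run with a mouse miRNA split in both directions. They summed to 2638 CPM in the cardiotoxin library, 1683 CPM in the denervated library and 1480.4 CPM in the normal library. Of the 22 that passed, 9 were at least 2-fold higher in cardiotoxin than in normal and 9 lower, and 2 were higher and 0 lower in denervated than in normal. As a share of the 22 that is 40.9% in each direction for cardiotoxin, against 32.0% higher and 39.8% lower over all kept rows. For denervated, 6.22% of all kept rows were higher and 6.22% lower. With rows of equal counts taken once, 6 of 18 were higher and 8 lower in cardiotoxin than in normal, with a median log2 ratio of -0.44. With each row apart, the median log2 ratio of cardiotoxin over normal was 0.30 over library totals and -0.29 with edgeR's TMM factors. The set thus has no direction of its own that held under all of these.

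rno-miR-1249 was the most abundant, at 1209 CPM in the cardiotoxin library, 334 CPM in the denervated library and 462 CPM in the normal library, 2.62-fold higher (2.48 to 2.76) in cardiotoxin than in normal. Its sequence lies in the mouse gene Mir1249 on chromosome 15 from 84951526 to 84951623 (GRCm38, minus strand), inside the protein-coding gene 5031439G07Rik. bta-miR-150 was at 213 CPM in the cardiotoxin library, 23.2 CPM in the denervated library and 13.6 CPM in the normal library, 15.6-fold higher (12 to 20.6) in cardiotoxin than in normal. The mouse row for miR-150-5p, a lymphocyte miRNA on the leukocyte list, was at 1542 CPM in the cardiotoxin library, 206 CPM in the denervated library and 116 CPM in the normal library, and the foreign row held 12.2% (cardiotoxin), 10.1% (denervated) and 10.6% (normal) of the counts of the pair. The mouse row mmu-miR-339-5p_R-3 had a log2 ratio of cardiotoxin over normal of 3.62. The variants bta-miR-339a_1ss22CT, at 106 CPM (cardiotoxin), 11.4 CPM (denervated) and 7.38 CPM (normal), and bta-miR-339a_R+1_1ss22CA, at 71.8 CPM (cardiotoxin), 5.70 CPM (denervated) and 4.25 CPM (normal), also lay far above normal in cardiotoxin, the first 14.3-fold higher (10.02 to 21.1) and the second 16.9-fold higher (10.6 to 28.5).

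Rows of miR-181, a family with roles in lymphocyte development, run past the 3′ end of the mouse miRNA and took a larger share of the pair with the mouse row in cardiotoxin than in normal. mdo-miR-181a-5p_R+3_1 and its sister with equal counts were at 97.4 CPM in the cardiotoxin library, 35.8 CPM in the denervated library and 20.6 CPM in the normal library, 4.73-fold higher (3.75 to 6.02) in cardiotoxin than in normal. The mouse row for miR-181a-5p was at 2879.6 CPM in the cardiotoxin library, 5106 CPM in the denervated library and 6782 CPM in the normal library, 2.36-fold lower (2.30 to 2.41). The 3 mdo-miR-181b-5p_R+3 rows, with equal counts, were at 91.0 CPM in the cardiotoxin library, 41.3 CPM in the denervated library and 28.6 CPM in the normal library each. The mouse row mmu-miR-181b-5p_R-1 was at 952 CPM in the cardiotoxin library, 1161 CPM in the denervated library and 1469.6 CPM in the normal library. Of the counts of 1 such row and its mouse row, the extended row thus took 3.27% in cardiotoxin, 0.696% in denervated and 0.302% in normal for miR-181a, and 8.72%, 3.44% and 1.91% in the same order for miR-181b. These shares rest on no scaling of the libraries.

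mdo-miR-26-5p_R+3 continued past mouse miR-26a-5p and was highest in denervated, at 35.5 CPM in the cardiotoxin library, 192 CPM in the denervated library and 62.4 CPM in the normal library. It was 3.08-fold higher (2.71 to 3.52) in denervated than in normal, whereas the mouse row for miR-26a-5p was at 6964 CPM in the cardiotoxin library, 41554 CPM in the denervated library and 33919 CPM in the normal library. mdo-miR-34b-5p, which shares 22 bases with mouse miR-34c-5p and differs from it by C23T, was at a count of 0 in cardiotoxin, 60.3 CPM in denervated and 11.7 CPM in normal. It was 5.09-fold higher (3.82 to 6.90) in denervated than in normal and at least 14.4-fold lower in cardiotoxin than in normal. The mouse row for miR-34c-5p, of a family that p53 can induce, showed the same order at 47.3 CPM in the cardiotoxin library, 2595 CPM in the denervated library and 708 CPM in the normal library.

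The rows that were lowest in cardiotoxin had mouse rows that were lower too, with log2 ratios of cardiotoxin over normal of -6.45 for miR-125b-5p, -1.32 for miR-22-3p, -2.96 for miR-101a-3p and -1.99 for miR-320-3p. sha-miR-125a_R+2_1 and its sister with equal counts were at 0 in cardiotoxin, 23.5 CPM in denervated and 16.3 CPM in normal, at least 19.8-fold lower in cardiotoxin than in normal. mdo-miR-22-3p, which differs from mouse miR-22-3p by T22C, was at 14 CPM (cardiotoxin), 71.7 CPM (denervated) and 91.7 CPM (normal) and was 6.54-fold lower (4.88 to 8.93) in cardiotoxin than in normal. miR-125b-5p and miR-22-3p are both on the mesenchymal list. cgr-miR-101b-3p_R+1_1ss22GA was 6.31-fold lower (4.47 to 9.14) at 10.2 CPM (cardiotoxin), 75.5 CPM (denervated) and 64.2 CPM (normal). hsa-miR-320b was at 6.60 CPM (cardiotoxin), 38.4 CPM (denervated) and 40.7 CPM (normal), and its variant hsa-miR-320b_R-1_1ss20CA at 6.05 CPM (cardiotoxin), 84.0 CPM (denervated) and 115 CPM (normal), the first 6.17-fold lower (4.02 to 9.87) and the second 18.9-fold lower (12.4 to 30.5) in cardiotoxin than in normal.

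Over the 21 kept rows with a mouse row that shares at least 16 bases, the log2 ratio of cardiotoxin over normal had the sign of the mouse row in 15 and lay within 2-fold of it in 10. Rows at 0 in cardiotoxin are limited by the pseudocount. The sha-miR-125a rows, at -4.11 against -6.45 for miR-125b-5p, could not come within 2-fold for that reason. For denervated over normal, 13 had the same sign and 18 lay within 2-fold. The rows of a pair are read from the same libraries, and several of the 21 are sister rows with equal counts. hsa-miR-378c_R-2_2ss21AG22GC, at 242 CPM (cardiotoxin), 204 CPM (denervated) and 150.96 CPM (normal), was the most abundant of the 21 by mean.

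**Figure D4:**
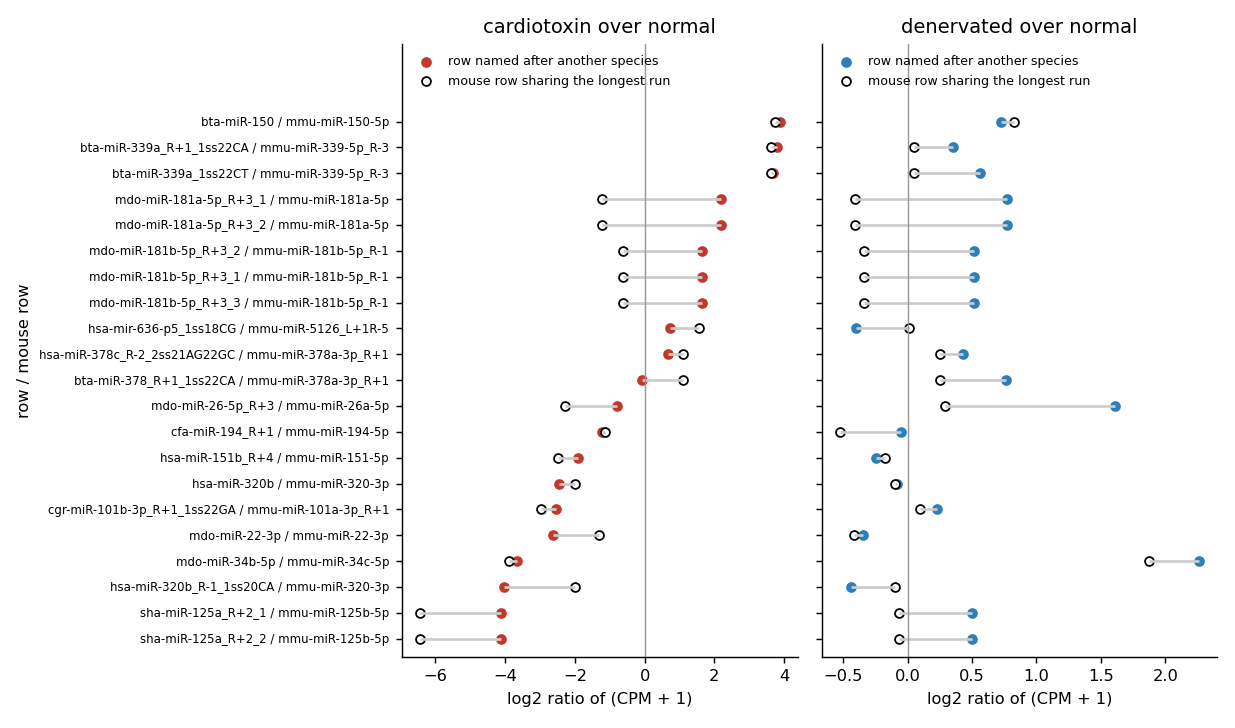
Log2 ratios of (CPM + 1) for cardiotoxin over normal (left) and denervated over normal (right) of 21 rows named after other species (filled points) and of the mouse row that shares the longest run with each (open points). The miR-150 and miR-339 pairs lie together, while over these library totals the miR-181 rows lie above 0 in cardiotoxin and their mouse rows below it.

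Of the 40 rows that lie in another annotated RNA, 5 passed the filter. In cardiotoxin, 3 of the 5 were at least 2-fold higher than in normal and 0 lower, where 32.0% of all kept rows were higher and 39.8% lower. The highest log2 ratio of cardiotoxin over normal among the 63 rows was that of efu-mir-9277-p3_1ss7CT, shown here with hsa-miR-4485-3p_R-2_1ss15CT, which had the highest of denervated over normal.
efu-mir-9277-p3_1ss7CT: tggggtttccccgcgcaggttc
hsa-miR-4485-3p_R-2_1ss15CT: taacggccgcggtatcct
efu-mir-9277-p3_1ss7CT lies in n-TStga1, a gene on chromosome 13 from 23518142 to 23518250 (GRCm38), and in Gm44456. GENCODE gives both the gene type miRNA, which does not settle what kind of RNA the row comes from. Whether efu-mir-9277-p3_1ss7CT comes from a tRNA was not tested. This row was at 59.1 CPM in the cardiotoxin library, 4.17 CPM in the denervated library and 2.46 CPM in the normal library, 24-fold higher (13.2 to 48.9) in cardiotoxin than in normal and 14.2-fold higher (9.65 to 21.5) than in denervated. hsa-miR-4485-3p_R-2_1ss15CT lies in mt-Rnr2, the large ribosomal RNA of mitochondria, on chromosome M from 1094 to 2675. It was at 18.4 CPM in the cardiotoxin library, 32.4 CPM in the denervated library and 5.37 CPM in the normal library, 6.03-fold higher (3.96 to 9.61) in denervated than in normal and 3.43-fold higher (2.13 to 5.72) in cardiotoxin than in normal.

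ssc-mir-1285-p5_1ss12TC lies in 7 annotated genes, among them Rn7s1 and Rn7s2 on chromosome 12, genes for the RNA of the signal recognition particle that guides secreted proteins to the endoplasmic reticulum. It was at 116 CPM in the cardiotoxin library, 17.1 CPM in the denervated library and 27.1 CPM in the normal library, 4.28-fold higher (3.49 to 5.28) in cardiotoxin than in normal. bta-mir-2887-2-p5_1ss16CG was at 208 CPM in the cardiotoxin library, 120.4 CPM in the denervated library and 149 CPM in the normal library and matched 4 genes annotated as miRNAs. Some rows below the filter matched messenger RNAs. 3 rows in the ferritin gene Ftl1 (efu-mir-9259) and 3 in the actin gene Actb (bta-miR-3533) had counts in cardiotoxin, of at most 5.91 CPM, and 0 in denervated and normal. The Ftl1 rows overlap closely and bta-mir-3533-p5_1ss6GA and bta-mir-3533-p3_1ss6GA have the same sequence, so these are not separate measurements. By contrast, eca-miR-9182_L+1R-1, in the collagen gene Col3a1 of fibroblasts, was at 0 in cardiotoxin, 2.09 CPM in denervated and 2.46 CPM in normal. Other rows in messenger RNAs, such as eca-mir-9182-p3 in Col3a1 and hsa-mir-10527-p5 in Pabpc1, are not described here. Each of these sequences also lies in other annotated genes, such as Ftl1-ps1, so the gene of origin is uncertain.

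The 60 rows with no match were rich in G and C, with a median of 72.2% against 50.0% in mouse-named rows, and most of those that passed were higher in cardiotoxin. They summed to 1602 CPM in the cardiotoxin library, 388 CPM in the denervated library and 455 CPM in the normal library, 3.52-fold higher (3.35 to 3.71) in cardiotoxin than in normal. Of the 17 that passed, 15 were at least 2-fold higher in cardiotoxin than in normal and 0 lower, with a median log2 ratio of 1.65. Some of the 17 passed only through their cardiotoxin value, such as bta-miR-11987_L-1_1ss8TA, which was below 10 CPM in both other libraries. The 15 of 17 is thus partly set by the filter, whereas the sum over all 60 rows does not depend on it. Of all kept rows, 32.0% were higher and 39.8% lower. In the deposited normalized columns 10 of 17 were higher and 0 lower, where 24.8% of all kept rows were higher and 43.7% lower. Against denervated, 14 of the 17 were higher in cardiotoxin, where 33.3% of all kept rows were higher. In denervated, 1 of the 17, chi-miR-326-5p_1ss5GA, was lower than in normal, where 6.22% of all kept rows were lower. The 25 rows with at least 80% G and C summed to 1042 CPM in the cardiotoxin library, 164 CPM in the denervated library and 188 CPM in the normal library, 5.53-fold higher (5.13 to 5.97) in cardiotoxin than in normal.

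A set of 7 rows, named after human miR-1469 and marmoset miR-9984, consisted of windows on 1 stretch of 25 bases, and the rows are shown from its 5′ to its 3′ end. Rows that overlap so closely are neighbours on 1 sequence and are not separate measurements of a condition.
stretch: cggcgcgcggcgcgggctccggggc
hsa-miR-1469_L-2R-1_1ss10GC: cggcgcgcggcgcgggctc
hsa-miR-1469_L-3R-1_1ss10GC: ggcgcgcggcgcgggctc
hsa-mir-1469-p5_1ss6GC: gcgcgcggcgcgggctccg
hsa-mir-1469-p5_1ss5GC: cgcgcggcgcgggctccg
cja-mir-9984-2-p5_1ss13TC: cggcgcgggctccggggc
The 4 rows that start at bases 1 to 4 of the stretch and end at base 19 or 21 were all far above normal in cardiotoxin. hsa-miR-1469_L-3R-1_1ss10GC was at 362 CPM in the cardiotoxin library, 44.3 CPM in the denervated library and 43.8 CPM in the normal library, 8.25-fold higher (7.10 to 9.64) in cardiotoxin than in normal. hsa-mir-1469-p5_1ss6GC was at 181 CPM (cardiotoxin), 25.5 CPM (denervated) and 24 CPM (normal), 7.50-fold higher (6.11 to 9.28). hsa-mir-1469-p5_1ss5GC was at 144 CPM (cardiotoxin), 9.24 CPM (denervated) and 13.9 CPM (normal), 10.4-fold higher (7.99 to 13.8), and hsa-miR-1469_L-2R-1_1ss10GC at 142 CPM (cardiotoxin), 12.9 CPM (denervated) and 14.6 CPM (normal), 9.63-fold higher (7.44 to 12.6).

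The 3 rows that start at bases 6 to 8 of the same stretch and end at base 23 or 25 did not share this difference. cja-mir-9984-2-p5_1ss13TC was at 18.4 CPM in the cardiotoxin library, 10.6 CPM in the denervated library and 17.2 CPM in the normal library, with a ratio of cardiotoxin over normal of 1.07 (0.759 to 1.5). hsa-mir-1469-p5_1ss3GC was at 5.64 CPM (cardiotoxin), 4.38 CPM (denervated) and 6.49 CPM (normal), a ratio of 0.890 (0.483 to 1.62). cja-mir-9984-2-p5_1ss14TC was at 2.34 CPM (cardiotoxin), 1.39 CPM (denervated) and 2.35 CPM (normal), a ratio of 1.01 (0.369 to 2.67). The intervals of these 3 ratios lie below those of the 4 rows that start further 5′.

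Another set of 6 nested rows, named after cattle miR-11987, lies on 1 stretch of 20 bases.
stretch: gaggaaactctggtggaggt
The 6 rows summed to 134 CPM in the cardiotoxin library, 21.2 CPM in the denervated library and 33.2 CPM in the normal library, 4.04-fold higher (3.35 to 4.88) in cardiotoxin than in normal and 1.57-fold lower (1.24 to 1.98) in denervated than in normal. bta-miR-11987_L-1_1ss8TA, the whole stretch, was at 52.3 CPM in the cardiotoxin library, 5.07 CPM in the denervated library and 8.61 CPM in the normal library, 5.99-fold higher (4.23 to 8.69) in cardiotoxin than in normal. bta-miR-11987_L-1R-2_1ss8TA, which lacks 2 bases at its 3′ end, was at 34.5 CPM (cardiotoxin), 5.28 CPM (denervated) and 10.3 CPM (normal), 3.37-fold higher (2.39 to 4.83). ssc-mir-1285-p3_1ss21TA, from the p3 side of the entry whose p5 side lies in Rn7s1, was at 263 CPM in the cardiotoxin library, 96.3 CPM in the denervated library and 122 CPM in the normal library, 2.16-fold higher (1.94 to 2.40) in cardiotoxin than in normal. chi-miR-326-5p_1ss5GA was at 17.9 CPM (cardiotoxin), 4.59 CPM (denervated) and 10.3 CPM (normal) and was 2.24-fold lower (1.40 to 3.62) in denervated than in normal.

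**Figure D5:**
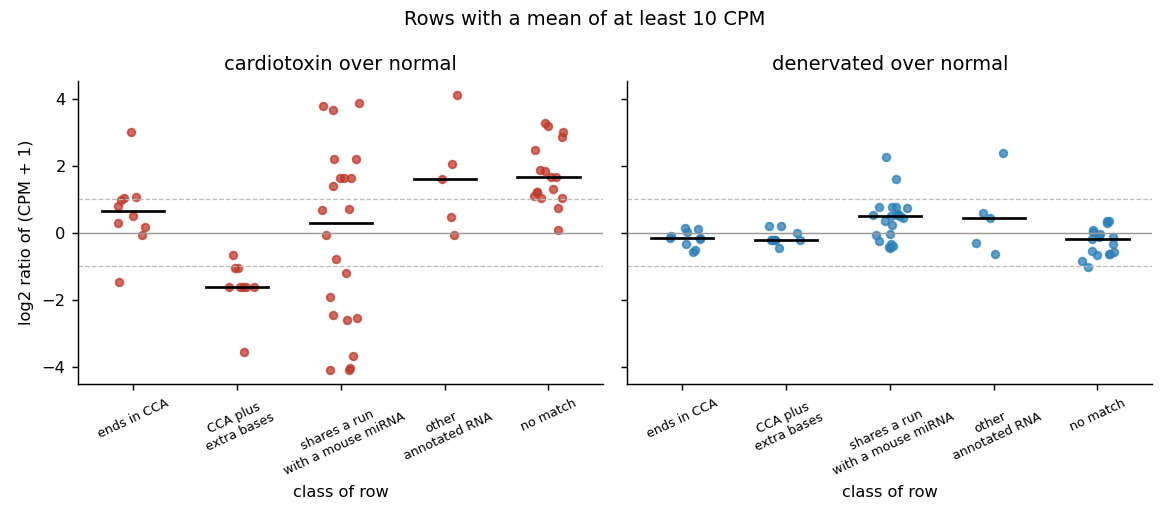
Log2 ratio of (CPM + 1) of the 63 rows with a mean of at least 10 CPM, by sequence class, for cardiotoxin over normal (left) and denervated over normal (right). Points are rows, black lines are class medians and dashed lines mark 2-fold. In cardiotoxin, over library totals, the rows that continue past CCA lie below 0 and those with no match above it, while in denervated 59 of the 63 lie within 2-fold of normal.

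Denervated differed 2-fold from normal in 4 of the 63 rows. The higher ones were hsa-miR-4485-3p_R-2_1ss15CT, mdo-miR-34b-5p and mdo-miR-26-5p_R+3, with log2 ratios of 2.39, 2.27 and 1.61. The lower one was chi-miR-326-5p_1ss5GA, with a log2 ratio of -1.01, which was under 2-fold with edgeR, DESeq2, the deposited normalized columns and totals that omit miR-21a-5p. Between the injuries, 3 of the 4 lowest log2 ratios were those of rows at 0 in cardiotoxin, with mdo-miR-34b-5p at least 73.1-fold lower in cardiotoxin than in denervated and sha-miR-125a_R+2_1 at least 28.5-fold lower.

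Scaling moved the size of the sums. The sum over CCA-ended rows was higher in cardiotoxin than in normal by 1.64-fold over library totals, 1.41-fold with edgeR's TMM factors, 1.49-fold with DESeq2's size factors, 1.35-fold in the deposited normalized columns and 3.48-fold over totals that omit miR-21a-5p. The sum over rows that continue past CCA was 2.75-fold lower in cardiotoxin than in normal in the deposited normalized columns, 2.63-fold lower with edgeR's TMM factors and 2.50-fold lower with DESeq2's size factors. Over totals that omit miR-21a-5p it was nearly level, at a ratio of 0.938. For denervated over normal, the ratio of CCA-ended rows lay on either side of 1, at 0.986 over library totals and 1.05 to 1.08 with the 4 other scalings. That of rows past CCA did likewise, at 0.992 over library totals and 1.06 to 1.08 with the others. The omission of miR-21a-5p shifted the median log2 ratio of all rows by 1.26. It gave 57 of 84 kept rows higher and 9 lower, where 51.6% of all kept rows were higher and 28.5% lower. Against that moved median, the rows named after other species stood 0.87 higher in median, and 0.99 higher over library totals.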

How the data were processed

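Small RNA libraries were made from total RNA by the TruSeq protocol for small RNA, per the labels, 1 library for each of 3 conditions. The deposited table gives, per row, a sequence, an estimated count marked raw and a normalized signal, per the file headers. The values showed that the authors' normalized signal is the count times 1 factor per library, and no source used here says how that factor was set. Some 83.7% (cardiotoxin), 83.7% (denervated) and 81.3% (normal) of the counts of the 252 rows were whole numbers, within 1e-06, and the others were fractions. The submitters' processing notes list StringTie, without saying which version or for what. The reference genome, the read aligner and the version of miRBase were not given in the sources used here. Among the table's lines 3 were empty and were not analysed here.

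CPM, counts per 1000000 counts, were computed from the deposited counts over the total of all rows of a library. Log2 ratios used CPM plus a pseudocount of 1, and a row counted as higher or lower at 2-fold of that ratio among rows with a mean of at least 10 CPM. Fold changes used no pseudocount and were taken, like their exact conditional binomial (Clopper-Pearson) 95% intervals, from counts rounded to whole numbers. For rows with few and fractional counts they can differ from the ratio of the printed CPM. Ratios of sums under the different scalings were not rounded. Shares had exact binomial and sums exact Poisson intervals. Rows were compared base by base with mature mouse miRNAs of RefSeq (GRCm38.p6), with the mouse-named rows of the table and with GENCODE M21 transcripts (GRCm38), with a minimum run of 16 bases for miRNAs and the whole row for transcripts. The rule for rows named in the text took the 15 highest means, the 8 highest and 8 lowest log2 ratios of cardiotoxin over normal, 6 and 6 of denervated over normal and 4 and 4 of cardiotoxin over denervated, the top row of each length and tail class and the 2 name lists. Other rows named here, among them the miR-181, miR-9226, miR-11987 and miR-1469 rows and those in messenger RNAs, were chosen after their values were seen. The members, the lists and the classes were chosen with earlier results of these data known. The tools were Python 3.11.15, pandas 2.3.3, numpy 2.4.6, scipy 1.17.1 and R 4.3.3, with edgeR 4.0.16 and DESeq2 1.42.0 for alternative scaling factors only. The calculation was tested on simulated counts.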

Additional observations from a re-analysis of the deposited data

How the results depend on the processing

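No paired analysis was possible because each condition has 1 library. No alternative turned the direction of a named row that was 2-fold apart. The count of rows at least 2-fold lower in denervated than in normal was 1 over library totals, 0 with edgeR's TMM factors, with DESeq2's size factors, in the deposited normalized columns and with a pseudocount of 5, and 2 over totals that omit miR-21a-5p. Over such totals, 84 rows passed the filter. In cardiotoxin, 57 were higher and 9 lower than in normal, where 51.6% of all kept rows were higher and 28.5% lower. Against denervated, 56 were higher and 10 lower in cardiotoxin, where 50% of all kept rows were higher and 28.5% lower. The share of counts in all 252 rows was then 2.63% (cardiotoxin), 0.778% (denervated) and 0.704% (normal), and that of CCA-ended rows of at most 19 bases was 1.55% (cardiotoxin), 0.476% (denervated) and 0.441% (normal), by construction, since the totals are smaller. With no filter on low values, the counts were 79 higher and 62 lower for cardiotoxin over normal, 25 higher and 19 lower for denervated over normal, and 78 higher and 62 lower for cardiotoxin over denervated. Of all 1108 rows without a filter, 31.0% were higher and 33.0% lower for cardiotoxin over normal, 9.84% and 11.6% for denervated over normal and 30.8% and 29.2% for cardiotoxin over denervated, and the median log2 ratio of cardiotoxin over normal was 0 for the 252 and for all rows, so the higher median of the 63 kept rows was not seen without the filter. With a mean of at least 100 CPM, 12 rows passed; 5 were higher and 0 lower in cardiotoxin than in normal, 0 higher and 0 lower in denervated than in normal, and 4 higher and 0 lower in cardiotoxin than in denervated, since fewer rows enter. Of 1551 values of single rows and of the smaller length and tail classes under the alternatives, 1485 kept their side of 2-fold or their size, 25 of rows passed 2-fold anew, 21 of rows no longer passed it and 20, all shares of classes, moved by more than their counting error. Taking rows of 1 number with the same 3 counts once was chosen after seeing the data and left each of the 6 counts within 1.5 times. With 1 library per condition, the spread between animals is unknown, and the intervals cover counting error only.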

Other observations

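Some rows matched small nucleolar or Cajal body RNAs, which guide chemical changes of other RNAs in the nucleus, and most of them also protein-coding genes that hold these RNAs, so the gene of origin is uncertain. cgr-miR-2424, which lies in Scarna10 and Ncapd2, was at 13.8 CPM in cardiotoxin, 2.22 CPM in denervated and 0 in normal, at least 20.5-fold higher in cardiotoxin than in normal. cja-miR-9933_L-4_1ss12AT, in Ddx39b and Gm22589, was at 12.4 CPM in the cardiotoxin library, 3.55 CPM in the denervated library and 2.12 CPM in the normal library. With counts rounded to whole numbers it was 5.53-fold higher (2.75 to 12.3) in cardiotoxin than in normal. cja-miR-9933_L-4, in Gm25128, differed little, at 3.71 CPM (cardiotoxin), 3.20 CPM (denervated) and 3.80 CPM (normal). efu-miR-2683_L+1R-5_1ss11GA, in Snora7a and Rpl32, was at 3.03 CPM in cardiotoxin and at 0 in denervated and in normal.

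The 2 ggo-mir-155 rows, in Mir155hg, the host gene of the leukocyte miRNA miR-155, were at 2.48 CPM each in cardiotoxin and at 0 in denervated and in normal, where 3 counts would be 0.417 CPM (denervated) and 0.671 CPM (normal). The hsa-mir-12136 rows, in the mitochondrial tRNA gene mt-Ts1, were at 0 in cardiotoxin, 1.46 CPM each in denervated and 0.783 CPM each in normal. The 2 ssc-mir-10390 rows, in mt-Co1, a subunit of the respiratory chain, were at 0 in cardiotoxin, 0.695 CPM each in denervated and 0 in normal. All these rows lay below the mean of 10 CPM, and all were chosen after their values were seen.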
